A study of Mus musculus with 2 samples.

Results

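The clustered protocadherins are cadherin-like cell adhesion proteins whose genes sit side by side in 3 arrays, named alpha, beta and gamma, on mouse chromosome 18. All rows of the count tables whose symbol begins with Pcdha, Pcdhb or Pcdhg were taken, which gave 57 of 32285 genes: 14 alpha, 22 beta and 21 gamma members. Each alpha or gamma gene is read from its own first exon, spliced onto exons that the whole array shares, whereas each beta gene is a single exon. Most promoters of the arrays are chosen at random in single neurons, with CTCF, cohesin and DNA methylation among the known players, and the proteins on 1 cell bind only like proteins on another, which lets neurites of the same neuron recognise and avoid each other. The C-type members (Pcdhac1, Pcdhac2, Pcdhgc3, Pcdhgc4 and Pcdhgc5) are known to be under regular rather than random promoter choice. The cytoplasmic tail of alpha protocadherins is known to bind the WAVE complex, the actin regulator of which Cyfip2 is a subunit.

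The study measured RNA in single cells of mouse forebrain at embryonic day 18.5, with 1 wild-type library and 1 Cyfip2 knockout library, each made from 2 pooled forebrains. How the allele was made was not used here. Cells were barcodes with at least 1000 UMIs (counted RNA molecules), at least 500 genes and at most 10% mitochondrial UMIs, which gave 9086 wild-type and 12855 knockout cells. After predicted doublets were left out, 8426 and 11533 cells remained, with 97252176 and 109610220 UMIs and medians of 9567 and 7787 UMIs per cell. The libraries shared 32 cell barcodes. With 1 library per genotype there is no replicate of either group, so no difference between them was tested, and all intervals are exact 95% intervals that cover counting error only.

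Tags of the targeted gene did not mark the knockout library. Levels are given as CPM, the UMIs of a gene scaled to a fixed total of all UMIs in the same cells. Cyfip2 was at 84.9 CPM in the wild-type library and 84.4 CPM in the knockout library, a log2 ratio of -0.01 (-0.05 to 0.03). Within classes of cells, Cyfip2 was at 103 and 92.0 CPM in excitatory neurons and at 86.5 and 78.9 CPM in GABAergic neurons, but at 36.0 and 62.2 CPM in progenitors, in the order wild type and knockout. Tags outside a deleted or frame-shifted part would still be counted, so this value checks nothing about the protein; the library is called knockout-labelled from here on.

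The cells fell into 35 clusters, which were named from marker genes. Excitatory neuron-like clusters (Neurod6, Neurod2) held 4405 wild-type and 5525 knockout-labelled cells, GABAergic neuron-like clusters (Gad1, Gad2, Dlx genes) 2078 and 3586 cells, and progenitor-like clusters (Sox2, Fabp7, Mki67, Eomes) 1199 and 1451 cells. For brevity they are called excitatory neurons, GABAergic neurons and progenitors. The markers shown were not confined to their class, and the names rest on longer lists. Over both libraries Sox2 was at 748 CPM in the GABAergic cluster led by Tshz1, beside 749 CPM in the progenitor cluster led by Hist1h1b. Eomes was at 1156 CPM in the progenitor cluster it led but at 4.83 CPM in the one led by Hist1h1b. The excitatory cluster led by Sstr2 held Eomes at 262 CPM. Small clusters were like microglia and macrophages (50 and 109 cells), Cajal-Retzius cells (38 and 59), vascular cells (34 and 69), meningeal cells (19 and 33), choroid plexus (36 and 14) and oligodendrocyte lineage (10 and 16), and 3 clusters of 557 and 671 cells stayed unnamed. Clusters differed in their share of the libraries: the cluster led by Tfap2d and Thsd7a held 136 wild-type and 660 knockout-labelled cells, the one led by Isl1 and Zfp503 held 198 and 610, and the one led by Sst and Zic4 held 142 and 381.

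By the GENCODE M21 annotation of GRCm38, alpha genes span chromosome 18 positions 36930184 to 37187661, beta genes 37264938 to 37524479 and gamma genes 37661793 to 37841873, all on the plus strand. How much of a transcript can name its member differed between arrays. In all 14 alpha and all 21 gamma members the last 500 exonic bases were shared with other members of the array, and a median of 46.6% of alpha and 55.4% of gamma exonic bases belonged to 1 member alone. In 21 of 22 beta members the last 500 bases were the gene's own. Pcdhb21 and Pcdhb22 overlap. UMIs of an alpha or gamma member can therefore come only from part of its transcript, and array totals are compared between cells, not with each other. The symbol Pcdha11 stood on 2 rows, which are told apart below by their Ensembl identifiers. They are separate genes in the annotation: ENSMUSG00000007440 starts at 37005203, next after Pcdha9, and ENSMUSG00000102206 at 37010712. No row carried the symbol Pcdha10.

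All but 1 of the members were detected in both libraries, and their levels ran up to 18.9 CPM. Summed over members, alpha genes held 29.7 CPM in wild-type cells and 30.0 CPM in knockout-labelled cells, beta genes 83.5 and 81.8 CPM, and gamma genes 99.7 and 101 CPM. A member was counted as measured with at least 100 UMIs in both libraries together, which 54 of 57 reached. Pcdha1 (20 and 11 UMIs), the C-type member Pcdhac1 (32 and 35 UMIs) and Pcdhb1 (1 and 0 UMIs) did not. Barcodes under 100 UMIs, which hold mostly free RNA, carried 19.7 and 23.8 CPM of alpha, 69.8 and 63.0 CPM of beta and 85.5 and 90.6 CPM of gamma genes.

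Within each array the levels were uneven, and the leading members had close values in both libraries. Pcdhga12, the last of the gamma A genes, had the most UMIs, with 18.9 CPM in wild-type and 17.7 CPM in knockout-labelled cells. Pcdhgc4, a C-type gene known to be needed for the survival of cortical interneurons, followed with 10.8 and 11.4 CPM. The C-type genes Pcdhgc3, known to bind the Wnt pathway scaffold Axin1, and Pcdhgc5 had 8.35 and 8.05 CPM and 4.28 and 4.53 CPM. Of the gamma genes Pcdhga4 had the fewest UMIs, at 1.04 and 1.05 CPM. Other leading gamma members were Pcdhga6 (7.32 and 6.96 CPM), Pcdhgb4 (5.53 and 6.15 CPM) and Pcdhga11 (5.95 and 5.53 CPM).

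Beta levels were highest for Pcdhb7 and for members in the last part of the array. Pcdhb7 had 10.7 and 11.4 CPM, Pcdhb17 had 10.8 and 10.1 CPM, Pcdhb20 had 9.36 and 8.69 CPM, Pcdhb19 had 8.32 and 7.80 CPM and Pcdhb22 had 5.54 and 5.74 CPM, in the order wild type and knockout-labelled. Among alpha genes 1 row stood out: Pcdha11 (ENSMUSG00000102206) had 9.46 and 10.6 CPM, and the next, Pcdha12, had 3.68 and 3.17 CPM. The other Pcdha11 row (ENSMUSG00000007440) was at 0.946 and 0.976 CPM. Per kilobase of exonic sequence that belongs to the member alone, Pcdhga12 (4.16 and 3.90 CPM per kilobase), Pcdhgc4 (3.11 and 3.28) and Pcdhb7 (3.04 and 3.26) still led the 12 members with the most UMIs. UMIs count molecules, so this scaling is a description and not a correction for length. It also sets gamma members, whose transcript ends are shared, beside beta members, whose ends are mostly their own.

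**Figure D1:**
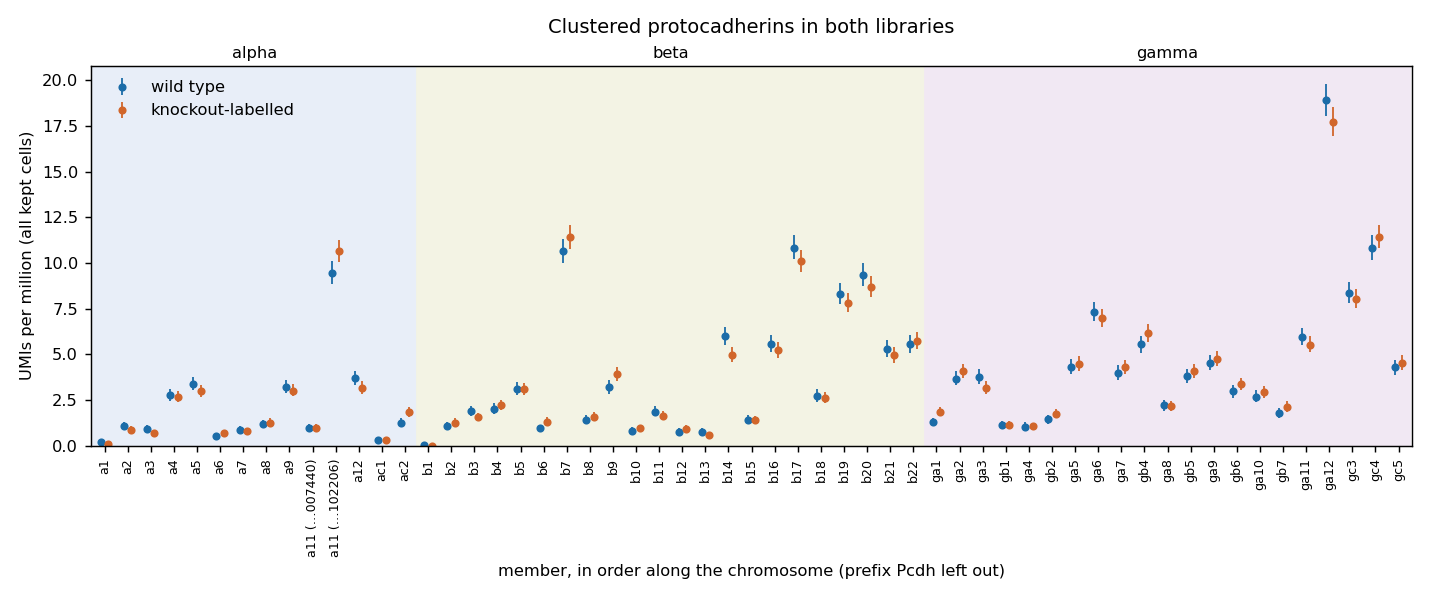
Level in CPM of each clustered protocadherin over all kept cells, in chromosomal order, for the wild-type library (blue) and the knockout-labelled library (orange), with exact 95% counting intervals. Both libraries show the same few high members, among them Pcdhga12 at 18.9 and 17.7 CPM, and intervals of the libraries overlap for most members.

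The first comparison asked where the arrays are expressed among the forebrain's cell classes. Excitatory neurons held far more alpha and beta RNA than the pooled progenitors, while gamma RNA differed little. Alpha genes were at 34.2 CPM in wild-type excitatory neurons against 5.47 CPM in wild-type progenitors, and at 33.1 against 6.29 CPM in the knockout-labelled library. Alpha RNA was thus 6.25-fold higher in neurons (5.11 to 7.71) in wild type and 5.26-fold higher (4.37 to 6.38) in the knockout-labelled library. Beta genes were at 100.3 against 23.0 CPM and 97.6 against 23.1 CPM, which is 4.37-fold (3.96 to 4.83) and 4.23-fold (3.83 to 4.67). Gamma genes were at 105 against 78.6 CPM and 106 against 79.0 CPM, only 1.34-fold (1.26 to 1.42) and 1.35-fold (1.27 to 1.43). The intervals of the gamma ratio lay below those of the alpha and beta ratios in both libraries.

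The same ratio was then taken member by member. A member was called when its log2 ratio was at least 0.58 in size and its interval left out 0 in the same direction in both libraries. By this rule 33 of 50 measured members were higher in excitatory neurons and 0 were lower, beside 24.4% and 23.3% of all genes measured. Higher were 10 of 10 measured alpha, 19 of 19 measured beta and 4 of 21 gamma members. These counts, and the medians below, depend on the UMI minimum. In progenitors alone 0 alpha, 3 beta and 13 gamma members reached it. The measured alpha members and most measured beta members, Pcdha2, Pcdha3, Pcdha8 and Pcdhb12 among them, thus passed only with their neuronal UMIs. Their counts and medians therefore add no support to the array sums. Not measured here were Pcdha1, Pcdha6, Pcdha7, Pcdhac1, Pcdhb1, Pcdhb10 and Pcdhb13. The array sums, which hold all members, do not rest on this minimum. The median log2 ratio over measured alpha members was 2.64 in wild type and 2.61 in the knockout-labelled library, over beta members 2.31 and 2.14, and over gamma members 0.36 and 0.40, with -0.00 and 0.03 over all genes.

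Of the 6 called members with the largest mean ratio, 5 were alpha genes with few progenitor UMIs. Pcdha2 was at 1.16 CPM in wild-type neurons and 0.054 CPM in wild-type progenitors, and at 0.884 and 0.211 CPM in the knockout-labelled library. Pcdha8 was at 1.11 and 0.054 CPM, and at 1.22 and 0.106 CPM. Pcdha4 was at 2.83 and 0.379 CPM, and at 2.55 and 0.159 CPM. Their log2 ratios rest on at most 7 progenitor UMIs per library, and that of Pcdha2, 4.43 in wild type, had an interval of 1.90 to 9.75. Pcdha3 (2.59 and 3.88) and Pcdha9 (2.69 and 2.83) were the other alpha genes of the 6. Pcdhb22, with more counts, was at 7.15 against 0.813 CPM in wild type and 7.50 against 1.48 CPM in the knockout-labelled library, log2 ratios of 3.14 and 2.34. Pcdhb7 was at 12.4 against 2.49 CPM and 13.4 against 3.96 CPM, log2 ratios of 2.31 and 1.76.

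Along the gamma array the ratio was largest at the start. The first gene, Pcdhga1, had log2 ratios of 2.18 (wild type) and 2.13 (knockout-labelled), as large as those of beta genes. Pcdhga2 followed with 1.05 and 0.89 and Pcdhga3 with 0.76 and 1.10. In the middle Pcdhga6 had 1.15 and 0.50. From Pcdhga9 to Pcdhga12, near the other end, the ratios lay between -0.37 and 0.34, and Pcdhga12 itself was at 18.9 CPM in neurons and 16.4 CPM in progenitors of the wild type and at 18.2 and 14.3 CPM in the knockout-labelled library. Of the C-type members, Pcdhgc3 was called, with 9.45 against 5.80 CPM and 8.87 against 4.55 CPM (log2 ratios of 0.70 and 0.96). Pcdhgc4 (0.49 and 0.21) and Pcdhgc5 (0.17 and 0.10) were not called, and Pcdhac2 was called, at 2.34 and 1.99.

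**Figure D2:**
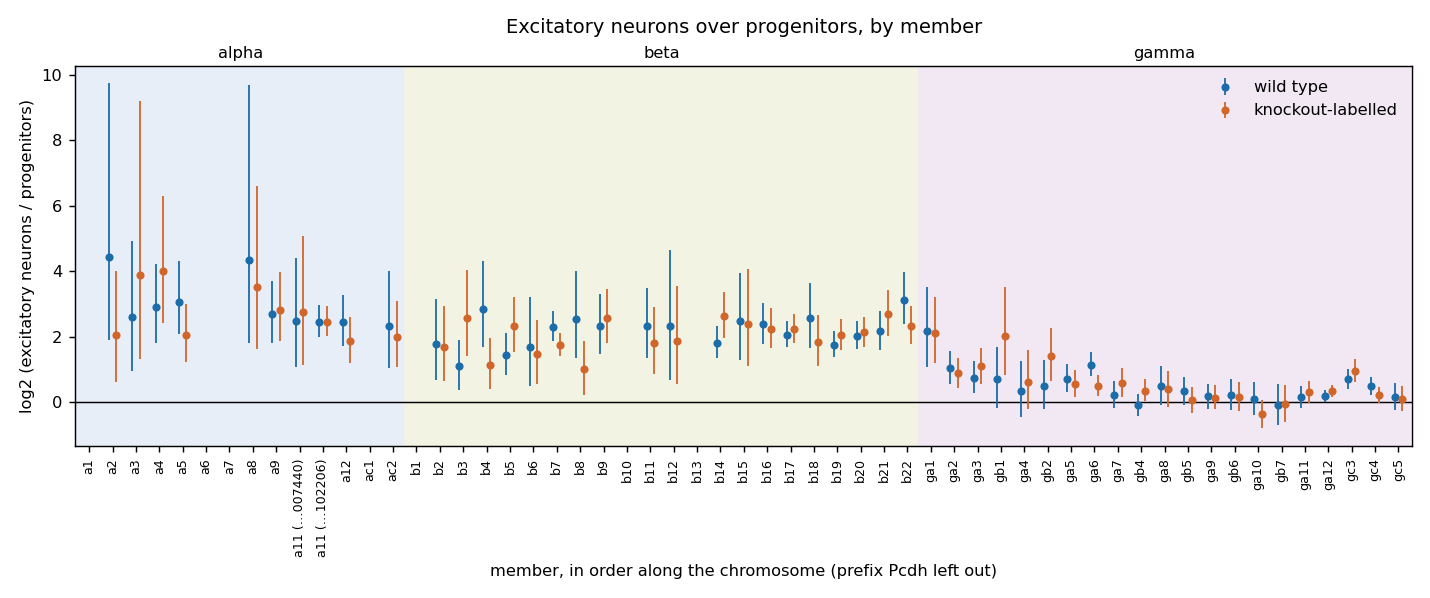
Log2 ratio of CPM in excitatory neurons over progenitors for each measured member, in chromosomal order, with exact 95% counting intervals, for the wild-type library (blue) and the knockout-labelled library (orange). Measured alpha and beta members lie above 1 in both libraries, while Pcdhga1 lies at 2.18 and 2.13 and Pcdhga12 at 0.20 and 0.34.

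Progenitor-like clusters were not alike. In the dividing cluster with Fabp7 and Cenpf among its leading genes, alpha genes were at 1.97 and 1.30 CPM and beta genes at 4.92 and 4.57 CPM, while gamma genes were at 56.1 and 42.4 CPM. In the cluster led by Aldoc and Fabp7, genes of radial glia, alpha was at 1.56 and 4.17 CPM and beta at 19.7 and 27.5 CPM. In the cluster led by Eomes and Neurog2, genes of intermediate progenitors, beta was at 39.4 and 38.6 CPM with alpha still at 6.02 and 4.61 CPM. The excitatory cluster led by Sstr2 and Rnd2, which also held Eomes, was at 16.9 and 13.8 CPM alpha and 56.4 and 52.4 CPM beta.

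All 10 clusters named excitatory held more alpha and beta RNA than any of the 6 progenitor clusters. Across excitatory clusters beta ran from 56.4 to 124 CPM in wild type and from 52.4 to 139 CPM in the knockout-labelled library, against 4.92 to 39.4 and 4.57 to 38.6 CPM across progenitor clusters, so the ranges did not overlap. Alpha ran from 16.9 to 65.4 CPM and 13.7 to 57.7 CPM against 1.56 to 9.40 and 1.30 to 11.3 CPM, again with no overlap. Unnamed clusters are not in these ranges. The one led by AY036118, nearest to excitatory neurons by its markers, was at 0 and 8.56 CPM alpha and 33.0 and 42.8 CPM beta. Those values are within or near the progenitor ranges. The one led by Cck and Calb2, likewise nearest to excitatory neurons, was at 30.5 and 28.5 CPM alpha and 141 and 117 CPM beta. Gamma ranges overlapped, from 63.9 to 236 CPM and 63.3 to 215 CPM in excitatory clusters and from 55.5 to 111 and 42.4 to 112 CPM in progenitor clusters. The highest gamma value, 236 and 215 CPM, was that of the excitatory cluster led by Unc5d and Pdzrn3, whose cells had a median of 3884 UMIs. This cluster was thus high in gamma and low in depth. The shallower unnamed cluster led by AY036118, with a median of 2101 UMIs, was at 33.0 and 29.1 CPM gamma. The part of depth in these values was not tested.

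Microglia and macrophages, immune cells of the brain, gave the lowest values. Their alpha genes had 0 UMIs of 1010372 in the wild type, which allows up to 3.65 CPM by the upper bound of the exact interval, and 2 UMIs (1.16 CPM) in the knockout-labelled library. Beta was at 1.98 and 5.78 CPM and gamma at 8.91 and 10.4 CPM there. Progenitors lay above these values in all 3 arrays, with gamma at 78.6 and 79.0 CPM. Cajal-Retzius cells, early-born neurons marked by Reln and Trp73, were at 83.5 and 107 CPM beta and 51.4 and 65.8 CPM gamma. Vascular cells held gamma at 126 CPM in 34 wild-type cells and 48.2 CPM in 69 knockout-labelled cells, with alpha at 4.84 and 1.75 CPM. Gamma was at 210 CPM in 8 and 41.8 CPM in 42 cells of the endothelial cluster led by Cldn5, and at 107 CPM in 26 and 70.4 CPM in 27 cells of the cluster led by Rgs5 and Acta2 (log2 -0.60, -1.50 to 0.25), so the mix of the vascular clusters differed between the libraries as well.

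GABAergic neurons held more alpha RNA than excitatory neurons and similar beta and gamma RNA. Alpha was at 49.5 CPM in wild-type GABAergic neurons against 34.2 CPM in excitatory neurons, and at 47.0 against 33.1 CPM in the knockout-labelled library. The ratio was 1.45-fold (1.33 to 1.58) in wild type and 1.42-fold (1.32 to 1.53) in the knockout-labelled library. Beta was 0.894-fold (0.842 to 0.949) and 0.941-fold (0.895 to 0.990), and gamma 1.11-fold (1.05 to 1.17) and 1.13-fold (1.09 to 1.19). Alpha values of single clusters overlapped, with 32.0 to 66.2 CPM and 31.0 to 61.1 CPM over 8 GABAergic clusters. The highest was the cluster led by Isl1 and Zfp503.

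By the same rule 8 of 54 measured members were higher in GABAergic neurons and 0 were lower, beside 10.9% and 10.1% of all genes measured, so the share of members called higher, 14.8%, was near that of genes at large. The 8 were 5 of 12 alpha members (Pcdha2, Pcdha4, Pcdha5, Pcdha7 and Pcdha8), the beta member Pcdhb10 and the gamma members Pcdhgb7 and Pcdhgc4. Pcdha4 was at 5.50 CPM against 2.83 CPM in wild type and 5.47 against 2.55 CPM in the knockout-labelled library, log2 ratios of 0.96 and 1.11. Pcdha5 was at 6.56 against 3.66 CPM and 6.04 against 2.86 CPM (0.84 and 1.08). Pcdha8 had the largest ratio in wild type, 1.61, with 1.13 in the knockout-labelled library, and Pcdha7 was at 1.92 against 0.869 CPM and 1.90 against 0.672 CPM. Pcdha2 had 0.99 and 0.93, and Pcdhb10 had 1.38 and 0.92. These 5 alpha genes lie in the first part of the array, while Pcdha11 (ENSMUSG00000102206), the alpha gene with the most UMIs, was not called. Pcdhgb7 had 0.72 and 0.75.

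Pcdhgc4 was the called member with the most UMIs. It was at 17.2 CPM in wild-type GABAergic neurons against 10.8 CPM in excitatory neurons, and at 17.0 against 10.8 CPM in the knockout-labelled library, log2 ratios of 0.67 (0.45 to 0.88) and 0.66 (0.47 to 0.84). Across GABAergic clusters Pcdhgc4 ran from 14.4 to 20.2 CPM in wild type and from 12.8 to 23.5 CPM in the knockout-labelled library. Excitatory clusters overlapped with these, since Pcdhgc4 was at 27.8 and 22.7 CPM in the cluster led by Unc5d and Pdzrn3 and at 5.17 and 5.08 CPM in the cluster led by Nts and Fezf2, genes of deep-layer neurons. Its neighbours Pcdhgc3 (log2 ratios of -0.18 and 0.13) and Pcdhgc5 (0.47 and 0.70) were not called.

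The second question was whether the knockout-labelled library differed from wild type. The 3 arrays were at nearly the same level in both. The ratio of knockout-labelled over wild type was 1.01-fold for alpha (log2 0.01, -0.06 to 0.08), 0.981-fold for beta (-0.03, -0.07 to 0.02) and 1.02-fold for gamma (0.03, -0.01 to 0.07). For all members together it was 1.00-fold, with a log2 interval of -0.02 to 0.03. Counting error would thus leave room for differences of only a few percent in the sums, but the spread between embryos or libraries is not known from 1 library each.

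Sums within cell classes were as close. In excitatory neurons the log2 ratios were -0.05 (-0.14 to 0.05) for alpha, -0.04 (-0.09 to 0.01) for beta and 0.02 (-0.03 to 0.07) for gamma. In GABAergic neurons they were -0.07 (-0.21 to 0.06), 0.04 (-0.06 to 0.13) and 0.05 (-0.03 to 0.14), and in progenitors 0.20 (-0.19 to 0.60), 0.01 (-0.19 to 0.20) and 0.01 (-0.10 to 0.11). All 9 intervals included 0. Over the 26 clusters with at least 50 cells in each library, the beta interval lay above 0 in 2 and below 0 in 5. The alpha interval lay above 0 in 0 and below 0 in 2, and the gamma interval above 0 in 1 and below 0 in 2.

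Some single clusters did stand off the diagonal. Beta was at 103 CPM in the knockout-labelled and 71.4 CPM in the wild-type cells of the cluster led by Isl1 and Zfp503 (log2 0.52, 0.19 to 0.86), 1 of the clusters of uneven share. In the dividing progenitors led by Spc25 and Pclaf beta was at 9.22 against 19.6 CPM (log2 -1.09, -1.92 to -0.31). Alpha was at 45.6 against 65.4 CPM in the cluster led by Hs3st4 and Nxph3, genes of deep-layer neurons (log2 -0.52, -0.91 to -0.14), and at 13.7 against 20.3 CPM in the one led by Pdzrn3 and Nrp1 (log2 -0.57, -1.01 to -0.13).

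**Figure D3:**
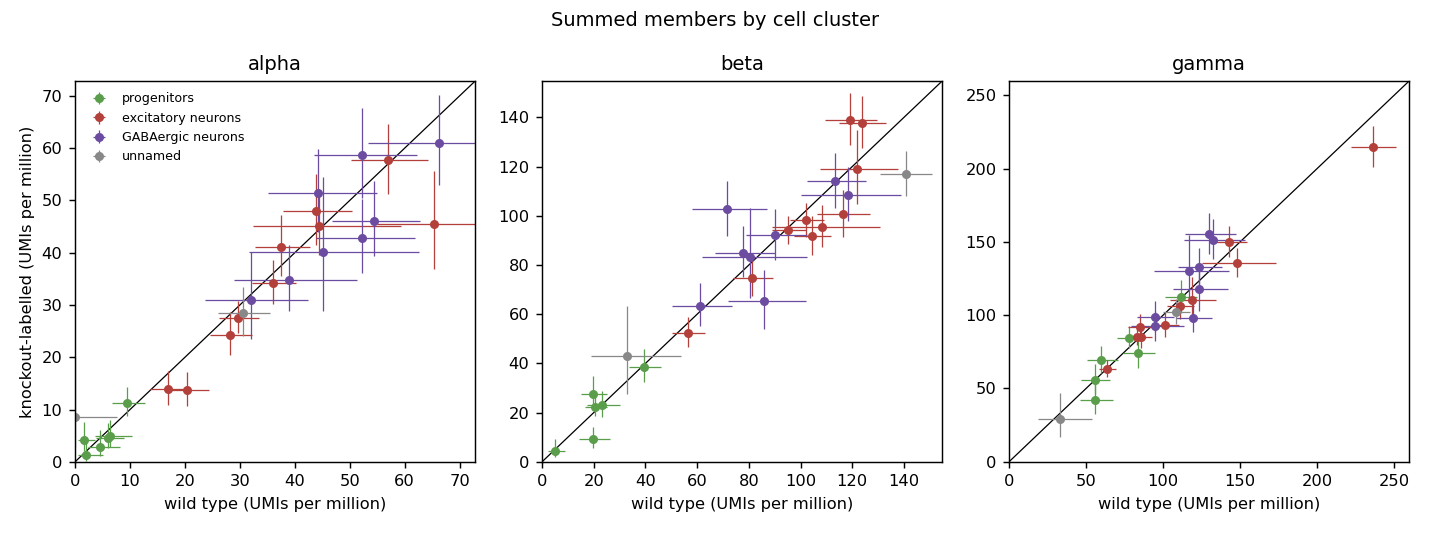
Summed alpha, beta and gamma CPM of each cluster with at least 50 cells in each library, wild type on the x axis and knockout-labelled on the y axis, with exact 95% counting intervals and the line of equality. Clusters lie along the line in all 3 arrays, and progenitor clusters (green) lie apart from clusters named as neurons for alpha and beta but not for gamma.

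Single members were also close. Over all cells 0 of 54 measured members were called higher (3.43% of all genes measured) and 0 were called lower (1.09% of all genes). Without the size rule, intervals lay above 0 for 5 members (17.2% of all genes) and below 0 for 4 (22.4% of all genes), so both shares, 9.26% and 7.41%, were smaller than those of genes at large. The median log2 ratio was 0.03 over members and -0.01 over all genes.

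Of the 5 members with intervals above 0, 3 were below 2 CPM in both libraries. The C-type gene Pcdhac2, known for its part in the spread of serotonergic axons, was at 1.24 CPM in wild type and 1.83 CPM in the knockout-labelled library (log2 0.56, 0.23 to 0.90). Pcdhga1 was at 1.28 and 1.85 CPM (0.54, 0.21 to 0.87), Pcdhb6 at 0.936 and 1.30 CPM (0.48, 0.09 to 0.87), Pcdhb9 at 3.19 and 3.90 CPM (0.29, 0.08 to 0.51) and Pcdha11 (ENSMUSG00000102206) at 9.46 and 10.6 CPM (0.17, 0.04 to 0.30). The 4 with intervals below 0 were Pcdhb14 (6.01 and 4.96 CPM), Pcdhga3 (3.76 and 3.17 CPM), Pcdha12 (3.68 and 3.17 CPM) and Pcdhga12 (18.9 and 17.7 CPM). Pcdha11 and its neighbour Pcdha12 stood on opposite lists.

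In excitatory neurons 2 of 48 measured members were called higher (1.46% of all genes measured) and 0 lower (0.423%). Pcdhac2 had 74 UMIs, or 1.37 CPM, in wild type and 119 UMIs, or 2.10 CPM, in the knockout-labelled library (log2 0.62, 0.19 to 1.06). In the cluster led by Tfap2d, which is mostly knockout-labelled, Pcdhac2 had 0 and 20 UMIs, and without the 3 clusters of uneven share the log2 ratio was 0.47, under the size rule. Pcdhb6 had 57 UMIs, or 1.05 CPM, and 91 UMIs, or 1.61 CPM (0.61, 0.12 to 1.11). Both were under the size rule with a mitochondrial maximum of 5% (0.49 and 0.54) or with doublets kept (0.43 and 0.54). Intervals lay above 0 for 7 members (12.8% of all genes) and below 0 for 5 (15.5%), and the median over members was -0.00, with -0.01 over all genes.

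In GABAergic neurons 0 of 34 measured members were called higher (1.75% of all genes) and 1 was called lower (0.528%). This was Pcdhga3, at 4.84 CPM in wild type and 2.98 CPM in the knockout-labelled library (log2 -0.70, -1.20 to -0.21), from 73 and 69 UMIs; it was -0.50 with equal weights of the clusters. In excitatory neurons Pcdhga3 was at 4.03 and 3.73 CPM, and the difference between the classes was not tested. Intervals lay above 0 for 3 members (10.2% of all genes) and below 0 for 1 (11.5%). In progenitors 1 of 16 measured members was called higher (0.734% of all genes) and 0 lower (1.27%). This was Pcdhb7, at 2.49 CPM from 46 UMIs and 3.96 CPM from 75 UMIs (0.67, 0.12 to 1.23), while in excitatory neurons Pcdhb7 was at 12.4 and 13.4 CPM. Pcdhb7 was also the 1 member with an interval above 0 in progenitors (7.78% of all genes), and 0 had one below 0 (16.6%).

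**Figure D4:**
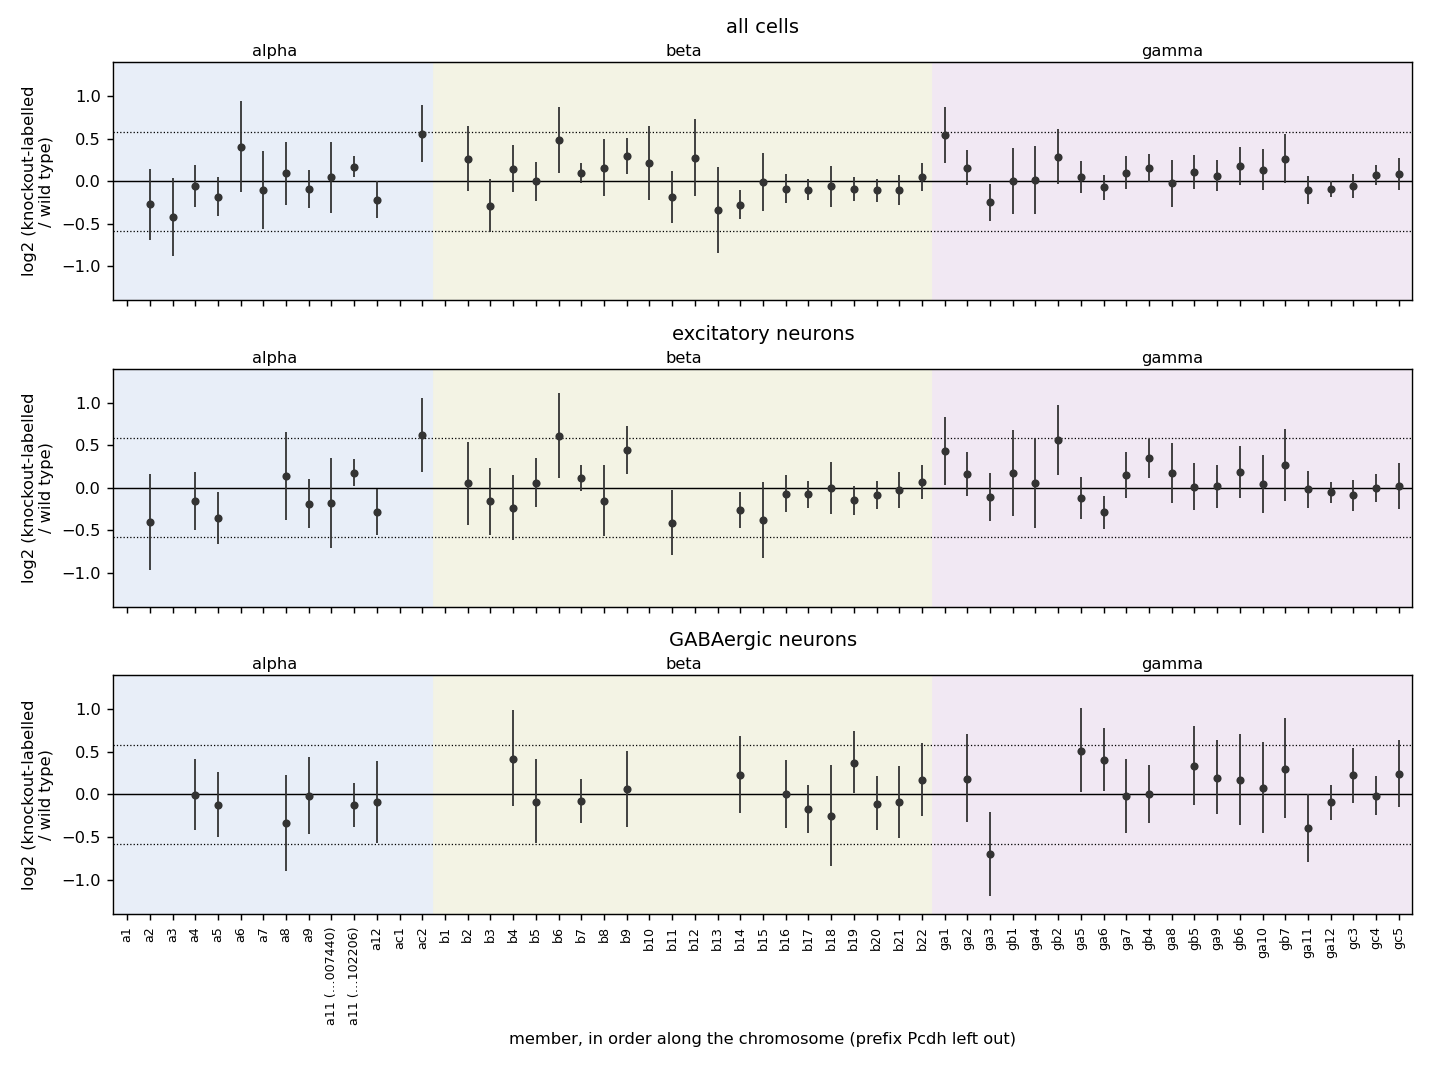
Log2 ratio of knockout-labelled over wild-type CPM for each measured member, in chromosomal order, in all cells, excitatory neurons and GABAergic neurons, with exact 95% counting intervals; dotted lines mark the size rule of 0.58. Members scatter on both sides of 0 in each array, and those past a dotted line with an interval off 0 are Pcdhac2 and Pcdhb6 in excitatory neurons and Pcdhga3 in GABAergic neurons.

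Genes that control promoter choice or bind the proteins were read as a list of 47, of which 46 were measured over all cells. Of these 46, 0 were called higher and 0 lower, beside 3.43% and 1.09% of all genes. Intervals lay above 0 for 6 of the 46 (17.2% of all genes) and below 0 for 18 (22.4% of all genes), with a median log2 ratio of -0.04 beside -0.01 over all genes. The insulator protein gene Ctcf, which loops the arrays' promoters to their enhancers, was at 189 and 188 CPM, and Smchd1, which keeps members silent, at 105 CPM in both. The 2 lowest ratios with an interval off 0 were those of the kinase gene Ptk2b (2.01 and 1.59 CPM, log2 -0.34) and the synaptic adhesion gene Nlgn1 (67.5 and 53.7 CPM, -0.33). By class, Nlgn1 was at 104 and 87.0 CPM in excitatory neurons (-0.25). In GABAergic neurons it was at 11.6 and 13.3 CPM (0.20, -0.08 to 0.47). The 2 highest ratios over all cells were those of the DNA methyltransferase gene Dnmt3a (55.7 and 61.3 CPM, 0.14) and of Lrif1, a partner of Smchd1 (39.5 and 43.2 CPM, 0.13). The WAVE complex gene Wasf1 was at 78.1 and 70.6 CPM (log2 -0.14, -0.19 to -0.10). In progenitors 1 gene of the list was called higher, Cyfip2 itself, with the values given above (log2 0.79). Of 10 delta protocadherins, relatives that lie outside the arrays, Pcdh11x was called over all cells, at 6.53 and 13.9 CPM (log2 1.09). Within classes, Pcdh11x was called higher in GABAergic neurons (1.04), Pcdh20 in excitatory neurons (0.96) and progenitors (0.89), and Pcdh1 in progenitors (0.76).

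How the members are spread over single cells was described next. To compare cells of unequal depth, each was thinned to 5000 UMIs and shallower cells were left out. A mean of 1.12 members had a UMI in a wild-type excitatory neuron (SD 1.16 over 3447 cells) and 1.08 in a knockout-labelled one (SD 1.12, 4048 cells). GABAergic neurons had 1.10 and 1.09 members and progenitors 0.528 and 0.491. Of excitatory neurons 64.5% and 63.3% had a UMI of any member, of GABAergic neurons 65.2% and 63.8%, and of progenitors 38.3% and 36.9%. In microglia and macrophages the shares were 10.9% of 46 cells and 8.25% of 97 cells.

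Without thinning, 83.7% of wild-type and 79.0% of knockout-labelled excitatory neurons had a UMI of a member, with means of 2.38 and 2.01 members and at most 14 and 13, at median depths of 10427 and 8533 UMIs. Left out as shallower were 958 and 1477 excitatory neurons, 699 and 1466 GABAergic neurons and 156 and 279 progenitors. At 5000 UMIs, 30.2% and 28.9% of excitatory neurons had UMIs of 2 or more members. Members present in a cell but not seen at this depth cannot be counted.

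UMIs of the same member came together in the same neurons. For each member, pairs of UMIs within 1 cell were counted and set against the number expected if every cell of its cluster held the member at the cluster's level, scaled by the cell's depth. This pair ratio is 1 for a gene that is even over a cluster's cells and higher for one that is on in some cells and off in others. It was computed over 6483 wild-type and 9111 knockout-labelled neurons, and it was chosen after the data were seen. Pairs from 1 cell are not independent, so no interval is given.

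Beta members were the most uneven and C-type members were close to even. Same-member pairs of beta genes numbered 2826 in wild type where 488 were expected, a ratio of 5.79, and 2742 where 451 were expected in the knockout-labelled library, 6.08. Alpha members other than C-type had ratios of 2.65 and 2.78, and gamma members other than C-type 2.47 and 2.52. C-type members together had 1.08 and 1.16, while the median over 11681 single genes, an unlike measure, was 1.23 and 1.24. Of the 133 and 134 C-type pairs expected, 73.5 and 77.4 were those of Pcdhgc4, so the joint value leans on it. Pcdhgc4 (0.857 and 0.943) lay below that median in both libraries and Pcdhgc3 (1.38 and 1.37) above it in both. Pcdhgc5 was below it in wild type (1.01) and above it in the knockout-labelled library (1.61). Genes of the WAVE complex stood at 1.12 and 1.12 and the delta protocadherins, which differ between neuron types, at 1.82 and 1.91. The libraries gave like values in each case.

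Counting each cell once, beta members again had the highest ratios and C-type members the lowest. Cells with at least 2 UMIs of the same beta member numbered 1206 in wild type (415 expected, 2.91-fold) and 1281 in the knockout-labelled library (392 expected, 3.27-fold). For alpha the ratios were 1.94 and 2.35, for gamma 2.05 and 2.05, and for C-type members 1.05 and 1.16. Alpha lay above gamma by pairs in both libraries, but below it by cells in wild type.

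Of 33 members with at least 3 expected pairs in each library, 25 had a pair ratio of at least 2 in both libraries, beside 14.1% of all genes tested. They were 12 of 12 beta, 10 of 16 gamma and 3 of 5 alpha members. Pcdhb7 had 921 pairs in wild type (101 expected, a ratio of 9.13) and 910 in the knockout-labelled library (109 expected, 8.34). Pcdhb4 had the highest ratios of those tested, 13.4 and 13.2. The frequent late beta genes were lower, such as Pcdhb17 at 3.88 and 4.15 and Pcdhb20 at 3.54 and 3.32.

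The 8 tested members that did not reach the ratio in both libraries included all 3 tested C-type members and the last genes of the alpha and gamma variable exons. Pcdhgc4 was at 0.857 and 0.943, Pcdhgc3 at 1.38 and 1.37 and Pcdhgc5 at 1.01 and 1.61. Pcdhga12, the member with the most UMIs, was at 1.44 and 1.64. Pcdha12 was at 0.958 and 1.42 and Pcdha11 (ENSMUSG00000102206) at 1.98 and 2.38. Pcdhgb4 (1.44 and 1.94) and Pcdhga9 (2.38 and 1.11) were the others. The fourth measured C-type member, Pcdhac2, had 4 and 6 pairs where 1.49 and 2.78 were expected (ratios of 2.68 and 2.16), too few to be tested.

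UMIs of different members of 1 array were paired within cells slightly more often than expected. The pair ratios were 1.20 and 1.16 for alpha, 1.14 and 1.12 for beta and 1.17 and 1.19 for gamma. Counted by cells, different beta members 2 or more steps apart shared fewer cells than expected, from 0.836 and 0.793 at 2 steps to 0.470 and 0.496 at 11 or more. The expected number of cells assumes members that are even over a cluster. For bunched members such as the beta genes it is too high even if they are independent. These values below 1 therefore do not show that members avoid each other's cells. Between arrays the pair ratios were 1.04 and 0.981 for alpha with beta, 1.11 and 1.06 for alpha with gamma and 0.930 and 0.910 for beta with gamma.

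Among beta genes the ratio depended on how close the genes lie. Direct neighbours had a ratio of 2.24 in wild type and 2.20 in the knockout-labelled library, genes 2 steps apart 1.36 and 1.23, genes 3 steps apart 1.24 and 1.31, and genes 4 or 5 steps apart 1.08 and 1.13. Genes 6 to 10 steps apart were at 0.852 and 0.890, and genes 11 or more steps apart at 0.876 and 0.793. The gamma genes showed less of this, with 1.28 and 1.36 for direct neighbours and 0.970 and 1.03 at 11 or more steps. Counting each cell once, beta values were 1.26 and 1.38 for neighbours and 0.484 and 0.529 at 6 to 10 steps; this count is lower throughout, since members whose UMIs are bunched are seen in fewer cells.

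Neighbour ratios came mostly from a few frequent beta genes. Pcdhb16 and Pcdhb17 had 280 shared pairs in wild type (a ratio of 2.75) and 231 in the knockout-labelled library (2.65), and Pcdhb19 and Pcdhb20 had 296 (2.24) and 259 (2.29). Pcdhb21 and Pcdhb22, whose exons overlap, had 256 (4.87) and 210 (3.87). Other neighbours went the opposite way, as Pcdhb7 and Pcdhb8 did with 18 (0.623) and 6 (0.217), or differed between the libraries, as Pcdhb6 and Pcdhb7 did with 13 (0.927) and 51 (2.33). Without the overlapping pair the neighbour ratio was 1.97 and 2.01.

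Beta genes are similar in sequence, and a read from a stretch that genes share can be misassigned. Of 21 neighbour pairs, 14 shared at least 1 window of 50 identical bases in the annotated transcripts. The shared part was at most 9.49% of a transcript's windows (Pcdhb21 and Pcdhb22), 3.65% for Pcdhb19 and Pcdhb20 and 0.152% for Pcdhb16 and Pcdhb17. The 7 neighbour pairs that shared no window were rarely detected, with 77 pairs in wild type and 57 in the knockout-labelled library, and had ratios of 1.54 and 1.18. Genes 2 steps apart shared windows as often (15 of 20) as neighbours did, at a lower pair ratio. Some neighbours almost touch in the annotation. Pcdhb17 ends at position 37489454 and Pcdhb18 starts at 37489465, and Pcdhb19 ends at 37504128 and Pcdhb20 starts at 37504264. The parts of shared sequence and of this close spacing in the neighbour ratio were not tested.

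**Figure D5:**
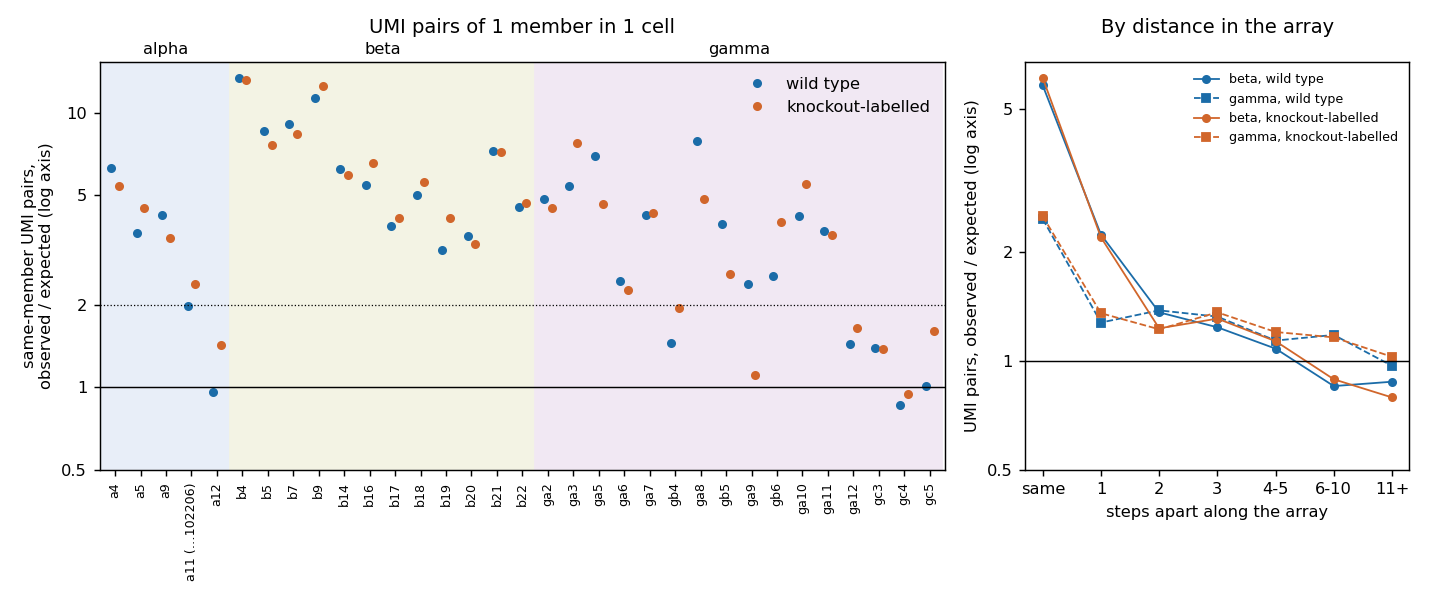
Left, observed over expected same-member UMI pairs within neurons (log axis) for the 33 members tested, wild type in blue and knockout-labelled in orange, with lines at 1 and 2. Right, the same ratio for beta (circles) and gamma (squares) by how many steps apart the members lie; beta falls from 5.79 and 6.08 for the same member to 2.24 and 2.20 for neighbours and below 1 from 6 steps on.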

How the data were processed

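The deposited matrices hold UMI counts per gene and barcode for all barcodes, made by the authors with Cell Ranger 4, per the file headers, on mm10, per the submitters' processing notes; the annotation release is not given in the sources used here. The counts were not normalized. From them, cells were kept by the filters given above, the cells with the highest Scrublet scores were left out as doublets (a rate of 0.8% per 1000 cells, so 7.26% of wild-type and 10.3% of knockout-labelled cells), and cells were clustered without the clustered protocadherins, Cyfip2, and mitochondrial, ribosomal, haemoglobin and sex-linked marker genes, with scanpy 1.11.5 (2000 variable genes, 30 components, 15 neighbours, Leiden resolution 1.0). Clusters were named from listed markers by a rule that was set and revised after the clusters had been seen. Clusters 9 (led by Isl1), 11 (Tfap2d) and 18 (Sst) are those of uneven share.

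Counts were summed per library and class and divided by total UMIs; ratios have exact conditional binomial intervals (scipy 1.17.1), and shares have exact Clopper-Pearson intervals. The code was tested on simulated counts. The members, gene lists and tests were chosen with earlier results of these data known. Named members are the 12 with the most UMIs, the C-type members, those called (at most 6 in each direction), the extremes of each array, and from the regulator list those called and the 2 largest in each direction; others in the text were chosen after their values were seen. Gene positions come from GENCODE M21, which matched 32158 of 32285 identifiers. UMI totals over all barcodes were 123978461 in wild type and 150828048 in the knockout-labelled library. The fold, 1.5, stands behind the log2 size rule of 0.58.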

Additional observations from a re-analysis of the deposited data

How the results depend on the processing

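No paired analysis was possible because each genotype has 1 library and no test was made. Alternatives were a minimum of 2000 UMIs per cell, a mitochondrial maximum of 5%, doublets kept, other scalings, other count minimums, equal weights for clusters and, chosen after seeing the data, leaving out clusters 9, 11 and 18. No called value changed sign; several sums with log2 ratios near 0 did, among them alpha over all cells and gamma in excitatory neurons with equal cluster weights. Of the values for arrays, counts, list, members per cell and pair ratios, 410 stayed within 1 interval of, or 1.5 times, the reported value and 50 did not. A minimum of 20 CPM left 0 members called in each comparison, since few members reach it. A minimum of 10 UMIs gave 1 member called lower in excitatory neurons, 1 higher in GABAergic neurons, and 2 higher and 2 lower in progenitors. Members called higher in excitatory neurons numbered 0 at a mitochondrial maximum of 5%, 0 with doublets kept and 1 with equal cluster weights. Equal weights also gave 1 member called higher over all cells, 0 lower in GABAergic neurons, 1 regulator called lower over all cells and 1 in excitatory neurons, and log2 ratios of -0.075 for alpha over all cells, and -0.050 for gamma and -0.054 for all members in excitatory neurons.

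Without clusters 9, 11 and 18, all members over all cells gave a log2 ratio of -0.034. Within GABAergic neurons 1 member was called higher in the knockout-labelled library than in wild type. In GABAergic against excitatory neurons 1 member was called lower, and beta was at -0.18 in the knockout-labelled library. Progenitors of that library had 0.542 members per cell, beside 0.491 with all clusters. The clusters left out hold no progenitors, so that change reflects only the random draws of the thinning. At a mitochondrial maximum of 5%, 1 member was called lower in GABAergic than in excitatory neurons, all members in that comparison were at 0.19 in the knockout-labelled library, excitatory neurons had 1.07 (wild type) and 1.01 (knockout-labelled) members per cell, and the beta pair ratio was 6.38 in the knockout-labelled library. With doublets kept, the log2 ratio of excitatory neurons over progenitors was 1.98 and 1.81 for beta and 1.06 for all members in the knockout-labelled library, members per cell there were 1.13 in excitatory neurons and 0.551 in progenitors, and pair ratios were 5.55 and 5.79 for beta and 1.36 for C-type members of the knockout-labelled library. Scaled without mitochondrial, haemoglobin and ribosomal protein genes, the ratio for all members over progenitors was 1.06 in the knockout-labelled library. Thinned to 2000 UMIs, members per cell were 0.543 and 0.529 in excitatory neurons, 0.534 and 0.553 in GABAergic neurons and 0.230 and 0.279 in progenitors; thinned to 8000 UMIs they were 1.59 and 1.57, 1.65 and 1.65, and 0.815 and 0.752.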
